A study of Mus musculus with 11 samples.

Results

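The mouse genes Mir199a-1, Mir199a-2, Mir199b and Mir214 were followed through the reprogramming of embryonic fibroblasts to induced pluripotent stem cells. They were chosen by name, and all 4 were present among the 3859 small RNA genes of the deposited table, with a value above 0 in every library. Small RNA was sequenced from 11 libraries, 1 for each stage. The stages were mouse embryonic fibroblasts (MEF) before induction, days 1 to 8 after doxycycline, an established line of induced pluripotent stem cells (iPSC) and a line of embryonic stem cells (ESC). Every library is labelled Mbd3f/-, a genotype with a floxed and a null copy of Mbd3, which encodes a subunit of the NuRD chromatin repressor complex, and the series' design text has the MEF carrying a doxycycline-inducible cassette of Oct4, Klf4, Sox2 and Myc, the factors that drive reprogramming. The table heads the ESC column V6.5, which the design text also uses for a wild-type ESC line, so the genotype of that library is unclear. By the labels, cells of days 3 to 8 and of both pluripotent lines were plated on irradiated human foreskin fibroblasts, whereas MEF and days 1 and 2 are not listed on them, and the medium changed to LIF with inhibitors of MEK and GSK3 at a point that the sources put on different days. With 1 library a stage there is no spread between cultures: tests over the course measure the scatter of 9 libraries around a trend, and differences between single stages are given without a test.

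A miRNA gene is transcribed as a hairpin that is cut to a mature strand from its 5′ arm and another from its 3′ arm, and the bases from position 2 to 8 of a mature strand, the seed, guide it to its target mRNAs. In mice, Mir199a-2 and Mir214 are made from 1 long transcript, Dnm3os, which is active in embryonic mesenchyme under the transcription factor Twist1 and whose loss disturbs the growth of the skeleton. MiR-199 and miR-214 are known as miRNAs of fibroblasts and other mesenchymal cells; miR-214 acts on Ezh2, the methyltransferase of Polycomb, in mouse muscle cells, and miR-199a-3p, which p53 raises, has been described as a brake on mouse reprogramming. The mature strands of miR-199a and miR-214 are the same in human and mouse.

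The hairpins are shown because their shared strands set what the table can tell apart. Capitals mark the annotated mature strands, from RefSeq on GRCm38.p6.
Mir199a-1: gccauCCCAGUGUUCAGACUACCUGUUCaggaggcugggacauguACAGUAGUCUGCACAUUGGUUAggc
Mir199a-2: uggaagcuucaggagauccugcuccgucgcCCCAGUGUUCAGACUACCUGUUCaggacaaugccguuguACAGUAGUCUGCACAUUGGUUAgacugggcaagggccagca
Mir199b: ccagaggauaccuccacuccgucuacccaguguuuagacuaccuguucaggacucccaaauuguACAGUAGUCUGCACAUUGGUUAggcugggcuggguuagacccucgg
Mir214: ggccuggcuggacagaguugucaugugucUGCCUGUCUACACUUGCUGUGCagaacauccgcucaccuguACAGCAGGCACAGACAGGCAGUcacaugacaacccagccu

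The mature strands follow with the seed in capitals. MiR-199a-5p belongs to Mir199a-1 and Mir199a-2, miR-199a-3p is the same sequence as miR-199b-3p and belongs to all 3 Mir199 genes, and both miR-214 strands belong to Mir214 alone.
miR-199a-5p: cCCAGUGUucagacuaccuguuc
miR-199a-3p: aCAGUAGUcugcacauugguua
miR-214-5p: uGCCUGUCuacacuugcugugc
miR-214-3p: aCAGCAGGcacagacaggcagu

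The Mir199b hairpin held no exact copy of miR-199a-5p. Its closest stretch, from base 26 to 48 of the hairpin, was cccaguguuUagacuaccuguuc, with the 1 differing base in capitals: C10U, counted from the 5′ end of miR-199a-5p. Reads of the 3′ strand therefore match 3 genes and reads of miR-199a-5p match 2, so the division of reads among the Mir199 genes is uncertain, while Mir214 shares neither strand with them. The seeds differ between the Mir199 strands and the Mir214 strands. Among the other mature mouse miRNAs of RefSeq, the seed CAGCAGG of miR-214-3p occurred once, in Mir761, which was listed at 0 in all 11 libraries, and the other 3 seeds occurred in none. That search covers annotated strands alone, and the source used here annotates no 5′ strand for Mir199b. The stretch of Mir199b shown above differs from miR-199a-5p outside the seed and keeps the seed CCAGUGU, so the search does not speak for a 5′ strand of Mir199b.

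All 4 genes lie on the strand opposite a dynamin gene. On GRCm38, Mir199a-2 is at chromosome 1, 162217814 to 162217923, and Mir214 at 162223368 to 162223477, both on the plus strand. They are 5445 bases apart, both within exons of Dnm3os and antisense to an intron of Dnm3, in the GENCODE vM21 annotation. Mir199a-1 is at chromosome 9, 21496495 to 21496564, on the minus strand, antisense to an intron of Dnm2. Mir199b is at chromosome 2, 32318460 to 32318569, on the plus strand, antisense to an intron of Dnm1. Within 50 kb the table held 1 other small RNA gene, Gm23363, 117 bases from Mir199b, which was at 20.3 FPKM in MEF and listed at 0 in the other 10 libraries. The promoter window of Dnm3os (chr1:162217373-162217672, GRCm38.p6, plus strand, from RefSeq) is shown because Mir199a-2 and Mir214 share this start.
Dnm3os: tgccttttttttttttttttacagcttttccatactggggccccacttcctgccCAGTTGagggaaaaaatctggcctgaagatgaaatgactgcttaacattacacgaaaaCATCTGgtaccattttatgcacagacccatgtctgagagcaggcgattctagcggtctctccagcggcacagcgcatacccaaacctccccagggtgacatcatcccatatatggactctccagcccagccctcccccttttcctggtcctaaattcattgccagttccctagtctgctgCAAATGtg
Capitals mark the letters CANNTG, the general form of the E-box read by factors such as Twist1, which reads the same on both strands. It matched 3 times in this window. Of 32851 mouse promoter windows of this length, 72.3% held at least 1 match and 17.6% held at least 3, so such matches are common.

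All 4 genes were highest in MEF, lost most of that level by day 2 and were lowest in the iPSC line. Mir214, the rarest of them, was at 287077 FPKM in MEF, 89741, 20652, 27015, 19702, 12930, 10150, 7422 and 8081 FPKM on days 1 to 8, 1751 FPKM in iPSC and 6844 FPKM in ESC. Both pluripotent lines were below every stage of the course, and day 3 was above day 2. FPKM are fragments scaled to the length of the transcript and to the mapped fragments of the library.

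Mir199a-2, its partner on Dnm3os, was at 1724490 FPKM in MEF, 1086720, 351589, 480822, 461509, 379763, 280072, 193733 and 210980 FPKM on days 1 to 8, 21527 FPKM in iPSC and 326082 FPKM in ESC. Here only the iPSC line was below the course: on the FPKM as deposited, the ESC line stood between day 2 and day 6. Mir199a-1, on chromosome 9, was at 6216420 FPKM in MEF, 3825850, 1217590, 1748780, 1707830, 1382710, 1023410, 710250 and 758640 FPKM on days 1 to 8, 79285 FPKM in iPSC and 1197780 FPKM in ESC. Its order of stages was that of Mir199a-2 throughout.

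Mir199b, on chromosome 2, was at 1247390 FPKM in MEF, 866639, 284359, 411781, 415647, 353543, 263879, 183263 and 201592 FPKM on days 1 to 8, 18652 FPKM in iPSC and 308204 FPKM in ESC. It differed in order from the other Mir199 genes only where neighbours were close: day 4 was just above day 3, and the ESC line was above day 2. With 1 library a stage, it cannot be said whether such neighbours differ. The highest stage was 164-fold above the lowest for Mir214, 78.4-fold for Mir199a-1, 80.1-fold for Mir199a-2 and 66.9-fold for Mir199b.

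**Figure D1:**
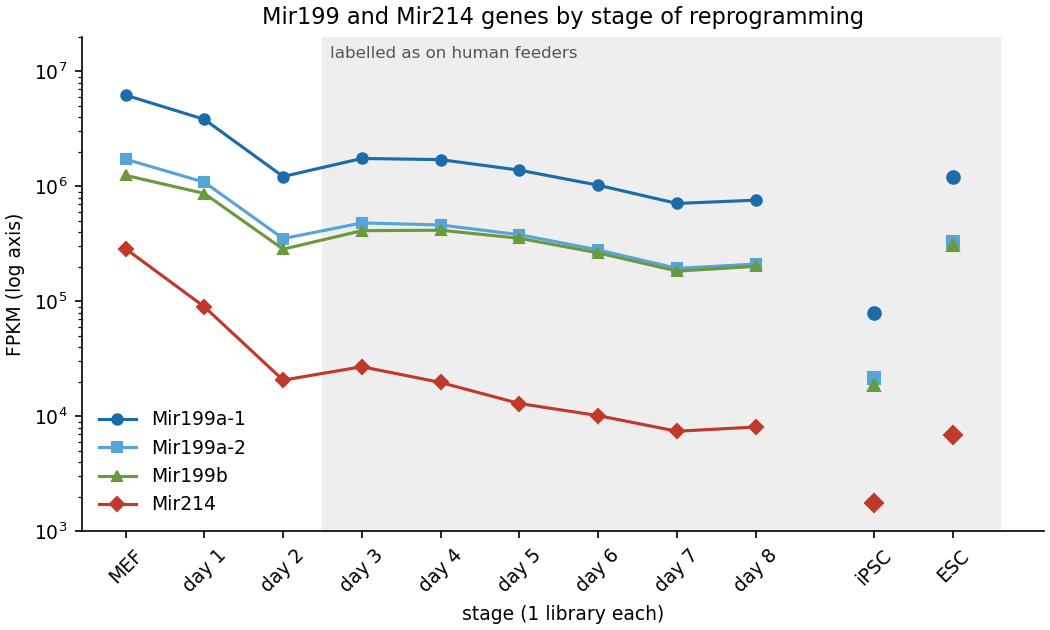
FPKM of the 4 genes on a log axis in each of the 11 libraries, 1 library per stage, with lines joining MEF to day 8 and the iPSC and ESC lines as separate points; the grey area holds the stages labelled as on human feeders. Mir214 stood at 8081 FPKM on day 8, against 287077 FPKM in MEF, and the Mir199 genes were at 15.1-fold to 16.5-fold lower levels in iPSC than in ESC.

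The values rest on many reads. Low values in the table came in steps, the worth of 1 read, which for transcripts of 110 nt, the length of Mir199a-2, Mir199b and Mir214, was between 10.2 FPKM on day 7 and 19.2 FPKM in MEF. For the 70 nt of Mir199a-1 it was 3.786 times as much. These steps imply 14972 reads of Mir214 in MEF, 748 on day 8, 548 in ESC and 117 in iPSC, the lowest value of any of the 4 genes (95% exact Poisson interval 96.8 to 140, which covers counting error only). The Mir199 genes had between 17460 and 89938 reads on every stage of the course, between 24666 and 26097 in ESC and between 1246 and 1438 in iPSC. Of the summed miRNA FPKM, the 4 genes together took 3.83% before induction, 1.89% a day later and 0.702% by day 2. Their share then lay between 0.634% (day 6) and 1.07% (day 3) and ended at 0.796% (day 8). It was thus higher at day 8 than at day 2, whereas the FPKM as deposited were lower at day 8 for each gene. For Mir214 alone the share was lower too, with 0.00545% at day 8 against 0.00774% at day 2. The iPSC line had 0.0476% for the 4 genes and the ESC line 0.729%.

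The first comparison asked whether the 4 genes moved with time over the 9 libraries of MEF and days 1 to 8, with MEF placed at day 0. All 4 fell, on the scale log2(FPKM + 10), and Mir214 had the steepest slope, at -0.57 ± 0.11 per day (log2, SE; limma's adjusted p = 0.00535). Mir199a-2 had a slope of -0.34 ± 0.08 (adjusted p = 0.0158), Mir199a-1 of -0.34 ± 0.08 (adjusted p = 0.0177) and Mir199b of -0.29 ± 0.08 (adjusted p = 0.0256). Of the 1419 transcripts tested, 10.6% fell and 12.5% rose at an adjusted p under 0.05, and their median slope was 0.02. A straight line is a rough description, since day 2 lies below day 3 in all 4 genes. The 3 Mir199 genes share mature strands, so their slopes are not separate measurements.

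The call of Mir214 held in each of the 9 fits that left out 1 library (slopes from -0.66 to -0.43), and those of the Mir199 genes depended on the libraries and the scaling. Mir199a-1 lost its call without MEF (adjusted p = 0.0533) and Mir199b without MEF (0.0788), day 1 (0.0635), day 7 (0.0643) or day 8 (0.0574), whereas Mir199a-2 kept its own in all 9. The highest adjusted p of Mir199a-2 in these limma fits was 0.0477. It is close to that of Mir199a-1, which has the same mature strands, so the 2 genes are not set apart by this. Scaled to the summed miRNA FPKM of each library, the slopes were -0.22, -0.23 and -0.18 for Mir199a-1, Mir199a-2 and Mir199b (adjusted p = 0.0811, 0.0727 and 0.138) and -0.46 for Mir214 (0.0199); of all transcripts 311 then rose and 114 fell, against 177 and 150 on the FPKM as deposited. The summed miRNA FPKM of MEF lacks Mir143 and Mir10a, listed at 0 there and at 40549900 and 9493720 FPKM on day 1. The sum of all values in the table was lowest on days 7 and 8. These 2 days come late in a fall that came mostly by day 2, so a straight line without them tends to steepen whatever their sums. The fit without them therefore cannot show what the low sums did. Its slopes were -0.37, -0.38 and -0.31 for Mir199a-1, Mir199a-2 and Mir199b (adjusted p from 0.0708 to 0.116) and -0.72 for Mir214 (0.0181). With a step between days 2 and 3 as a second term, an alternative added after the data were seen, they were -0.38, -0.38, -0.34 and -0.53 in the same order with larger standard errors, and none of the 4 was called (adjusted p from 0.139 to 0.185).

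**Figure D2:**
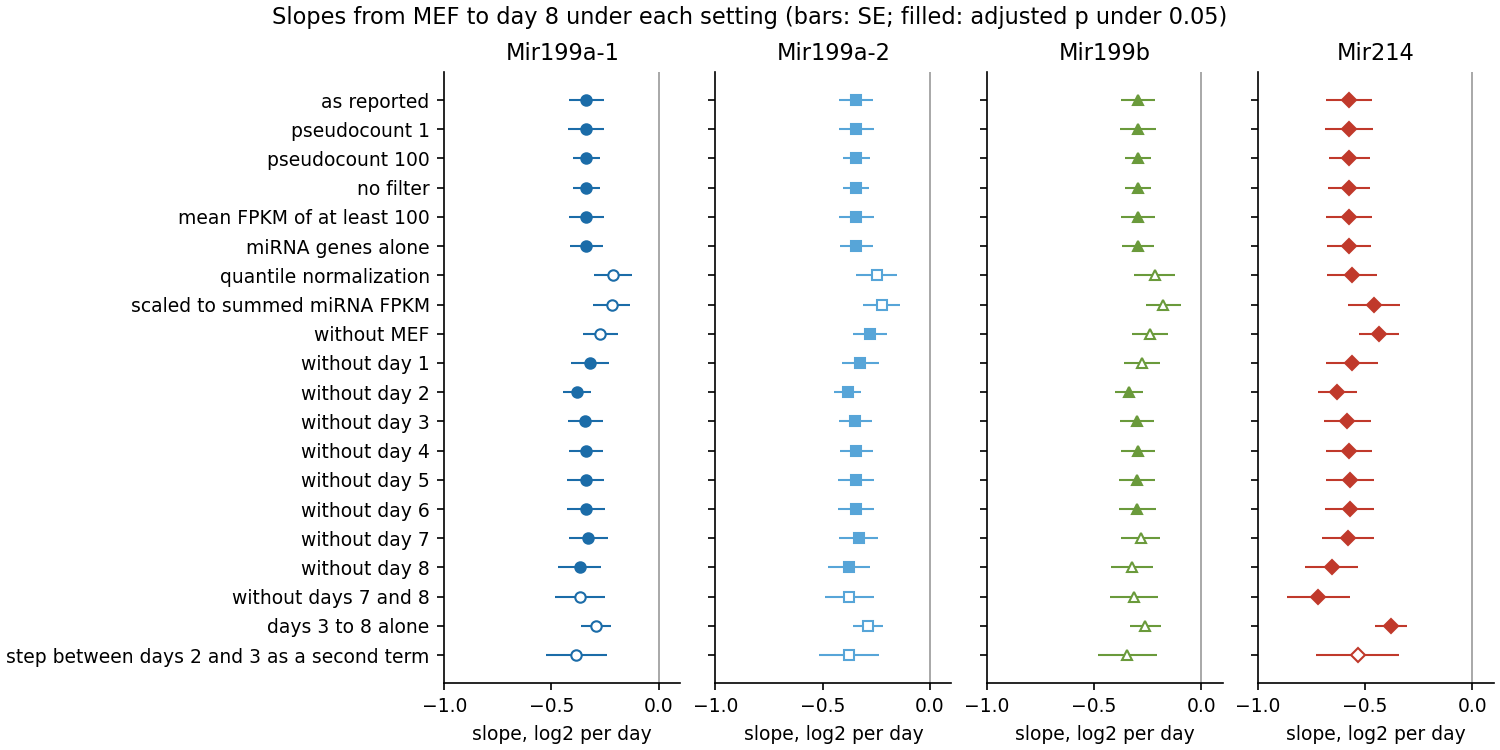
Slope per day (log2) of each gene, with its standard error as a bar, as reported and under each other setting; filled symbols have an adjusted p under 0.05 and open symbols do not. Every slope lies below 0, and Mir214 is open in 1 setting, the step between days 2 and 3 as a second term.

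Most of the fall came in the first 2 days, before the stages labelled as on feeders. Day 2 was 13.9-fold below MEF for Mir214, 5.11-fold for Mir199a-1, 4.90-fold for Mir199a-2 and 4.39-fold for Mir199b. All 4 thus passed a 4-fold threshold that 8.60% of tested transcripts passed downward in this comparison. The median transcript differed by 0.90 on the log2 scale in the other direction. With their shared strands, the Mir199 genes do not count as separate cases. In Mir214 both steps contributed, 3.20-fold between day 1 and MEF and 4.35-fold between day 2 and day 1. In the Mir199 genes the step from MEF to day 1 was smaller, at 1.62-fold, 1.59-fold and 1.44-fold for Mir199a-1, Mir199a-2 and Mir199b, and that from day 1 to day 2 was 3.14-fold, 3.09-fold and 3.05-fold.

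Day 8 was 35.5-fold below MEF for Mir214, 8.19-fold for Mir199a-1, 8.17-fold for Mir199a-2 and 6.19-fold for Mir199b. In this comparison 17.0% of tested transcripts were lower by at least 4-fold. Scaling to the summed miRNA FPKM, which was lower on day 8 than in MEF, adds 0.74 to every log2 difference of this comparison. Day 8 was then 21.3-fold below MEF for Mir214, 4.91-fold for Mir199a-1, 4.90-fold for Mir199a-2 and 3.71-fold, short of 4-fold, for Mir199b. The sum of MEF lacks Mir143 and Mir10a, listed at 0 there and at 7360140 and 165963 FPKM on day 8.

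The second comparison asked whether the 4 genes fell in step, which is of interest because Mir199a-2 and Mir214 share a transcript. In the values as listed they did not: Mir214 fell faster than each Mir199 gene, Mir199a-2 included. Mir199a-2 shares its mature strands with Mir199a-1 and in part with Mir199b, so its reads cannot be assigned to Dnm3os. Whether the miRNAs of that transcript fell in step was therefore not tested. For 1 read of Mir214 there were 6.01 reads of Mir199a-2 in MEF, 12.1, 17.0, 17.8, 23.4, 29.4, 27.6, 26.1 and 26.1 on days 1 to 8, while the iPSC line had 12.3 and the ESC line 47.6. The ratio moved mainly up to day 5 and then stayed within 26.1 and 29.4. The log2 ratio of Mir214 to Mir199a-2 had a slope of -0.23 ± 0.05 per day (SE, 9 libraries; exact two-sided permutation p = 0.00059, adjusted over 6 pairs 0.000714). It was -0.24 ± 0.05 against Mir199a-1 (exact permutation p = 0.000595, adjusted 0.000714) and -0.28 ± 0.06 against Mir199b (0.000336, adjusted 0.000672). Each of the 3 held in every fit that left out 1 library, with adjusted p up to 0.00643. Within days 3 to 8 alone the slopes were -0.09, -0.09 and -0.12, and none was called (adjusted p = 0.203 each). The permutation runs over all orders of the libraries and treats them as exchangeable, which libraries of a time course are only roughly.

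Mir199a-1 and Mir199a-2, on different chromosomes but with the same mature strands, kept nearly the same number of reads, with 1.02 to 1.09 reads of Mir199a-2 for 1 of Mir199a-1 over all 11 libraries. The slope of their log2 ratio was -0.0053 ± 0.0037 (exact permutation p = 0.196). Mir199b, which lacks an exact miR-199a-5p, changed against both. For 1 read of Mir199a-2 there were 0.723 reads of Mir199b in MEF, 0.797, 0.809, 0.856, 0.901, 0.931, 0.942, 0.946 and 0.956 on days 1 to 8, while the iPSC line had 0.866 and the ESC line 0.945. Each day was above the one before, and the slope of the log2 ratio was 0.05 ± 0.01 per day (exact permutation p = 5.51e-06, the smallest that 9 libraries allow; adjusted 1.65e-05). Against Mir199a-1 the slope was 0.04 ± 0.01 (the same p and adjusted p). By day 8 the 3 genes held 32.3%, 34.0% and 32.5% of the reads of the 4 genes, for Mir199a-1, Mir199a-2 and Mir199b, against 33.5%, 35.2% and 25.5% in MEF. How reads matching several hairpins were shared by the authors' tools is not given in the sources used here, so these ratios describe the table and not the output of each gene.

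**Figure D3:**
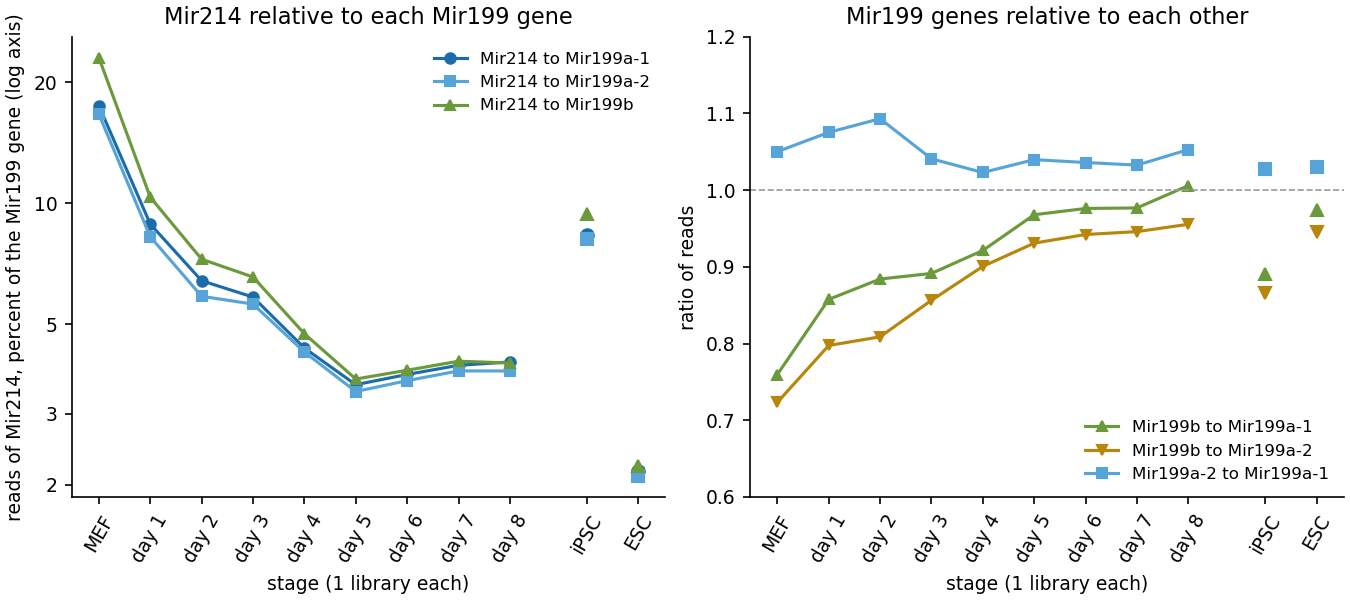
Left, reads of Mir214 as a percent of the reads of each Mir199 gene on a log axis; right, ratio of reads between the Mir199 genes, with a dashed line at equal reads; lines join MEF to day 8, and iPSC and ESC are separate points, 1 library per stage. Mir214 lost ground to each Mir199 gene up to day 5, and Mir199b reached 0.956 reads for 1 of Mir199a-2 on day 8, against 0.723 in MEF.

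The third comparison set the pluripotent lines against MEF. Both lines were lower in all 4 genes, and by very different amounts. In iPSC, Mir214 was 164-fold below MEF, Mir199a-2 80.1-fold, Mir199a-1 78.4-fold and Mir199b 66.9-fold. In ESC, Mir214 was 41.9-fold below MEF, Mir199a-2 5.29-fold, Mir199a-1 5.19-fold and Mir199b 4.05-fold. All 4 were thus at least 4-fold lower in both lines, though the Mir199 genes share strands and are not separate cases. Of tested transcripts, 10.9% were so in iPSC, 13.1% in ESC and 7.75% in both.

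The lines also differed from each other. In iPSC, Mir199b was 16.5-fold below ESC and Mir199a-1 and Mir199a-2 15.1-fold, whereas 7.12% of tested transcripts were at least 4-fold lower in iPSC than in ESC. Mir214 was 3.91-fold lower in iPSC. Set against day 8, the iPSC line was lower by 9.57-fold to 10.8-fold in the Mir199 genes and by 4.61-fold in Mir214; scaled to the summed miRNA FPKM it was lower by 16.4-fold to 18.6-fold and by 7.92-fold. The order of ESC and day 8 in the Mir199 genes depended on the scaling: ESC was 1.53-fold to 1.58-fold higher on the FPKM as deposited and 1.08-fold to 1.11-fold lower on the scaled values. In Mir214, ESC was lower than day 8 by 1.18-fold as deposited and by 2.01-fold scaled. The summed miRNA FPKM of both lines lacks Mir295, listed at 0 there. On day 8 it held 31201600 of 148162771 FPKM.

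The step from day 2 to day 3, where the labels first place the cells on human fibroblasts, went upward in all 4 genes, against the trend of the course. Day 3 was 1.45-fold above day 2 for Mir199b, 1.44-fold for Mir199a-1, 1.37-fold for Mir199a-2 and 1.31-fold for Mir214. Of all tested transcripts, 40.9% were higher on day 3 than on day 2 and 7.33% by at least 4-fold, and none of the 4 genes reached 4-fold. Mir654, named after its values were seen, had 130, 241 and 147 FPKM in MEF and on days 1 and 2. It had 297835 FPKM on day 3 and 146698 on day 8. Both lines are labelled as on feeders, yet it had 164921 FPKM in ESC and 67 in iPSC. The share of feeder RNA in each library was not tested. Its part in these values or in the gap between the lines, and the part of the medium, were not tested either. With identical mature strands, human and mouse miR-199a or miR-214 cannot be told apart in these values. Fewer fibroblasts and less of a miRNA per cell cannot be told apart either.

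Other miRNAs linked to mesenchymal cells behaved unevenly. Of 21 tested genes of a mesenchymal list without the 4, 9 fell, 0 rose and 12 were not called in the limma fit, with a median slope of -0.22, against 10.6% falling and a median of 0.02 over all transcripts. Mir10b, a Hox cluster miRNA, was the most abundant and fell by 0.62 ± 0.07 per day (adjusted p = 0.000778). Mir21, a miRNA of fibroblasts and scarring, fell by 0.37 ± 0.06 (adjusted p = 0.00396). Mir143, of smooth muscle and other mesenchyme, had no reads listed in MEF (0 FPKM), 40549900 FPKM a day later and 7360140 FPKM by day 8, with a slope of 1.15 ± 0.73 (adjusted p = 0.303). Mir10a, named after its values were seen, was also listed at 0 in MEF. It had 9493720 FPKM on day 1 and 165963 on day 8, with a slope of 0.63 ± 0.70 (limma's adjusted p = 0.604). Of the 12 genes not called, these 2 have slopes that rest on a 0 in MEF, and both were lower on day 8 than on day 1.

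The same list differed between the lines on the side of the Mir199 genes: 14 of its 21 genes were lower in iPSC than in ESC, 9 of them by at least 4-fold, and the median log2 difference was -1.16. Over all tested transcripts, 36.4% were lower in iPSC, 7.12% by at least 4-fold, and the median was 0.15. The largest of these differences, named after the values were seen, were in Mir100 (6216 FPKM in iPSC and 602545 in ESC), Mir221 (35232 and 676409) and Mir222 (46322 and 811467). Those 3 were also higher on day 3 than on day 2. Of the list, 10 of 21 were, a share near the 40.9% of all transcripts. Mir34b and Mir34c, targets of p53 and likewise named after their values were seen, were higher in iPSC than in ESC by 2.67 and 2.22 on the log2 scale.

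**Figure D4:**
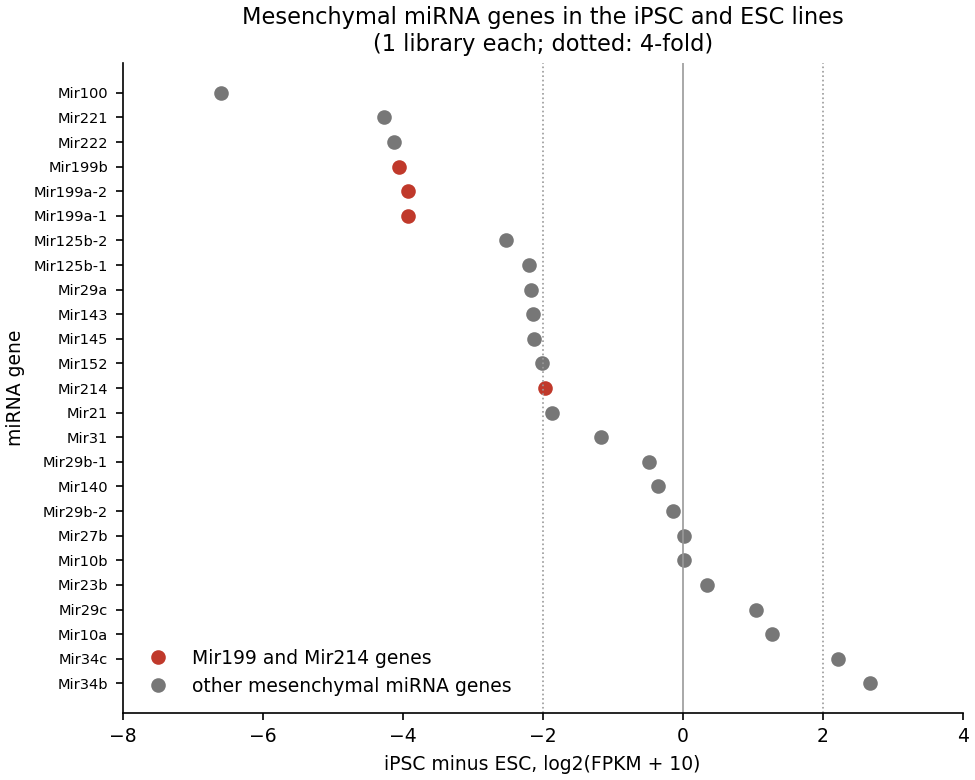
Difference in log2(FPKM + 10) between the iPSC and the ESC library for the 4 genes and 21 other mesenchymal miRNA genes, with a line at 0 and dotted lines at 4-fold. Mir199b, Mir199a-1 and Mir199a-2 lie at -4.05, -3.92 and -3.92, below all but Mir100, Mir221 and Mir222, and Mir214 lies at -1.96.

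In the epithelial list, whose miR-200 genes restrain the mesenchymal regulators Zeb1 and Zeb2, 4 of 7 rose and 1 fell, against 12.5% and 10.6% of all transcripts, with a median slope of 0.57. Its most abundant genes were Mir141, with a slope of 0.41 ± 0.20 (adjusted p = 0.172), Mir205, with 0.53 ± 0.18 (adjusted p = 0.0596), and Mir200b, which rose by 0.70 ± 0.11 (adjusted p = 0.00324). Mir200b had 4304 FPKM in MEF, 2360 FPKM a day later, 11508 by day 2 and 89380 by day 8.

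Markers of other cell types that a fibroblast culture can hold changed over the same days, in which 10.6% of all transcripts fell and 12.5% rose. The summed level of 5 muscle miRNA genes was 331 FPKM on day 8 and 176900 in MEF, with all 5 falling and none at 0 in MEF. That of 6 blood miRNA genes was 115600 FPKM on day 8 and 462300 in MEF, with 3 falling. This sum mixes unlike courses: on day 8, 5 of the 6 were at least 4-fold lower than in MEF and 1 was at least 4-fold higher. Of all tested transcripts, 17.0% were at least 4-fold lower. The blood sum was 840700 FPKM in iPSC and 417400 in ESC. Of 8 neural genes and the endothelial Mir126, 0 were called; their sums were 142500 and 55910 FPKM on day 8 and 200700 and 45000 in MEF. The part of such cells in the fall of the 4 genes was not tested. All 12 pluripotent miRNA genes rose, and their sum was 21920000 FPKM in iPSC, 17970000 in ESC and 21450 in MEF, where 5 of them were at 0. Mir295, which held 31201600 of their 46910000 FPKM on day 8, was listed at 0 in both lines, so the sums of the lines lack it. Of 8 fibroblast markers, 6 fell, 4 of them the genes described here. Their sum was 10200000 FPKM in iPSC, 30440000 in ESC and 64060000 in MEF, and the sum in MEF lacks Mir143, listed at 0 there. Mir143 alone held 3927200 FPKM of the sum in iPSC and 17316200 of that in ESC, while Mir10b had 4202500 FPKM in iPSC and 4142650 in ESC.

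The likeness of other genes was measured as Pearson's r of log2(FPKM + 10) over the 11 libraries, among 583 genes with a mean of at least 1000 FPKM and no value at 0. Points share the library scaling and r carries no test. Mir214 was most like Mir486 (r = 0.957), a miRNA of red blood cells and muscle, followed by Mir125b-2 (0.922), Mir152 (0.915), Mir132 (0.906) and Mirlet7i (0.899). Its own r with Mir199a-2, on the same transcript, was 0.917. The mean of the Mir199 genes was most like Mir152 (0.969), Mir99a (0.963), Mir125b-2 (0.940), Mir29a (0.902) and Mir132 (0.900). Mir486 had 649014 FPKM in MEF, 113384 by day 2 and 43030 by day 8, and the lines had 30723 (iPSC) and 60356 FPKM (ESC). Mir152 had 345049 FPKM in MEF, 91571 by day 2 and 105656 by day 8, with 26511 FPKM for the iPSC line and 106644 for the ESC line, and so shared the low iPSC and the higher ESC value of the Mir199 genes. Among the 4 genes, r was between 0.997 and 1.000 for pairs of Mir199 genes and between 0.887 and 0.917 for Mir214 with any of them. The Mir199 genes share mature strands, so their r with each other does not compare separate measurements.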

How the data were processed

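The authors deposited FPKM per small RNA gene, in 1 table with a column for each of 11 libraries. Cufflinks 2.2.1, Bowtie2 2, CASAVA 1.8.2 and mm10 are listed, without roles, per the submitters' processing notes. For the annotation, the filter on the table and the sharing of reads that match several genes, the sources used here give nothing. FPKM of short transcripts depend strongly on length, so folds and slopes were taken within a gene, and reads were used for ratios between genes. Sums, shares and rankings of FPKM over several genes were not corrected for length. In them, 1 read at 70 nt weighs 3.786 times as much as 1 read at 110 nt. Reads were recovered from the steps of low values at exactly 110 nt and 70 nt, with 1 ratio between the lengths for all libraries. Of values between 0.5 and 20.5 reads, 103 of 111 at 110 nt and 75 of 92 at 70 nt were whole within 0.02 read; the steps were set on these values.

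Slopes came from limma 3.58.1 in R 4.3.3 on log2(FPKM + 10), which understates changes of low transcripts, over 1419 transcripts with a mean of at least 10 FPKM, two-sided, with Benjamini-Hochberg adjustment over all of them and a threshold of 0.05 (prior SD 0.877 with 2.53 degrees of freedom). The fit was also run on simulated data with straight slopes and independent noise. That setting lacks the bend at day 2 and any dependence between days, so it cannot speak for the p-values given here. Ratios of genes were tested by exact permutation over 362880 orders of the libraries. Of 3859 gene IDs, 3712 were found in GENCODE vM21, and all 4 genes were found in RefSeq. Genes named beyond the 4 include the 3 most abundant tested genes of the mesenchymal and of the epithelial list. Others are the 5 most alike in profile, neighbours within 50 kb, the gene with a shared seed (Mir761) and the sole endothelial marker (Mir126). The rest were named after their values were seen (Mir10a, Mir100, Mir221, Mir222, Mir34b, Mir34c, Mir295 and Mir654). The genes and lists were chosen with earlier results of these data known.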

Additional observations from a re-analysis of the deposited data

How the results depend on the processing

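No slope of a single gene changed sign in any alternative. Under quantile normalization the slopes of Mir199a-1, Mir199a-2 and Mir199b were -0.21, -0.25 and -0.22, not called (adjusted p = 0.103, 0.0877 and 0.133); scaled to summed miRNA FPKM they were -0.22, -0.23 and -0.18; without days 7 and 8, -0.37, -0.38 and -0.31; within days 3 to 8, -0.29, -0.29 and -0.26 (adjusted p = 0.0583, 0.0607 and 0.0796); and with a step between days 2 and 3, added after seeing the data, -0.38, -0.38 and -0.34, with -0.53 for Mir214. The last 3 settings fit fewer libraries or more terms; for the others the cause was not tested. Leaving out 1 library gave slopes from -0.38 to -0.27 for Mir199a-1, -0.38 to -0.28 for Mir199a-2, -0.34 to -0.24 for Mir199b and -0.66 to -0.43 for Mir214.

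Of all transcripts, 177 rose and 150 fell. In miRNA genes alone 111 rose, scaled to summed miRNA FPKM 311 rose, within days 3 to 8 66 rose and 80 fell, without days 7 and 8 69 fell, and with the step 36 rose and 15 fell. Leaving out 1 library gave 93 to 175 rising and 97 to 170 falling. Within days 3 to 8 the log2 ratios of Mir214 to Mir199a-1, Mir199a-2 and Mir199b had slopes of -0.086, -0.0895 and -0.12, not called, and that of Mir199a-2 to Mir199a-1, called in no fit, was 0.0034 in place of -0.0053. Leaving out 1 library gave -0.29 to -0.16, -0.28 to -0.16 and -0.33 to -0.20 for the ratios of Mir214, and 0.033 to 0.047 and 0.041 to 0.055 for Mir199b to Mir199a-1 and Mir199a-2. Scaled to summed miRNA FPKM, an alternative added later for this comparison, the log2 differences of ESC to day 8 turned to -0.1083, -0.1391 and -0.1547 for Mir199a-1, Mir199a-2 and Mir199b. A smaller and a larger pseudocount ended no call of the 4 genes or their ratios. No paired analysis was possible because each stage has 1 library. Depth limits only Mir214 in iPSC, at 117 reads.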
